A study of Mus musculus with 10 samples.

Results

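The comparison described here is the response of mouse bone marrow cells to full-length ASXL2, set against the empty vector in the same experiment. It rests on 4 of the 10 libraries of the series: 2 libraries of cells with the empty vector and 2 of cells that over-expressed wild-type, full-length Asxl2, with 1 library of each kind in each of 2 labelled batches. The other 6 libraries carry mutant forms (Mutant1, Mutant2 and Mutant3, with 2 libraries each) and entered the same statistical fit, so that the spread between libraries could be estimated. All groups share the rest of the procedure: lineage-negative, Kit-positive bone marrow cells were sorted for GFP, expanded in IMDM with serum and mouse IL3, IL6 and SCF, and sequenced as polyA RNA. The labels give no age, sex or strain of the mice and no promoter for the vector, and do not say whether the libraries within a group are separate animals or cultures. Each p-value therefore rests on library-to-library spread that could be technical.

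ASXL2 is a nuclear scaffold protein that binds the deubiquitinase BAP1, and the complex removes ubiquitin from histone H2A. Ubiquitin on H2A is placed by Polycomb repressive complexes, so both activities bear on whether genes are kept silent. ASXL genes are mutated in myeloid cancers, and mouse blood stem cells need them for normal self-renewal and differentiation. The question that the comparison addresses is which transcripts change when more of the intact protein is made.

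Between 52422686 and 78008467 estimated counts per library stood behind the 4 libraries compared (up to 79320702 over all 10), and 17810 genes passed the filter on low counts. The cells carried the transcripts of mast cells: the 30 mast cell and basophil markers summed to 78913 and 81423 TPM (a level scaled to transcript length and to library size) with the empty vector and to 71868 and 86784 TPM with full-length ASXL2. The 25 stem and progenitor markers summed to 3899 and 3840 TPM with the empty vector and to 3280 and 3247 TPM with full-length ASXL2, lower in both. Of this list, Ly6a, the Sca-1 antigen, gave 1419, 1677, 1066 and 1057 TPM and was not called (log2 fold change -0.51, adjusted p = 0.0607). The 20 megakaryocyte markers summed to 2214, 1772, 2038 and 1942 TPM, of which Itga2b alone gave 1430, 1086, 1280 and 1126 TPM. Of these 20 markers 9 lay under 1 TPM, Pf4 among them, and 9 at 10 TPM or more. Most markers of 3 other lineages were low. Of the 24 monocyte and macrophage markers 15 lay under 1 TPM, as did 18 of the 21 neutrophil markers and 19 of the 21 lymphoid markers. The label names the cells at the start of the culture, and after expansion the mast cell list had the highest summed TPM of the marker lists. In such bulk RNA, fewer cells of a type and less RNA per cell cannot be told apart.

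Asxl2 itself was checked first. Asxl2 (chr12:3426857-3506852, build GRCm38) gave 107 and 111 CPM (counts scaled to library size by TMM) in the empty vector libraries of batch 1 and batch 2, and 1384 and 992 CPM with full-length ASXL2. Both full-length libraries lay far above both controls, and the log2 fold change was 3.39, a fitted fold of 10.5 (standard error 0.31, edgeR quasi-likelihood test with Benjamini-Hochberg adjustment, adjusted p = 0.00159, n = 2 and 2 libraries). The 6 mutant libraries held between 790 and 1892 CPM. The counts do not separate transcripts of the vector from those of the gene on the chromosome. The partners did not pass: Asxl1, the closest relative, gave 107, 103, 101 and 104 CPM (log2 fold change -0.03, adjusted p = 0.817), and Bap1, the catalytic partner, gave 77.1, 79.03, 70.1 and 79.3 CPM (log2 fold change -0.07, adjusted p = 0.588), each in the order empty vector batch 1, empty vector batch 2, full-length batch 1 and full-length batch 2. In these values and below, the same order is used.

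More genes were called higher than lower with full-length ASXL2. This holds for the called genes only: over all genes tested, 8231 had a log2 fold change above zero and 9579 below. At an adjusted p under 0.05, 686 genes rose (3.85% of those tested) and 217 fell (1.22%), 5.07% in all, and 3385 genes had an unadjusted p under 0.05. Rises were larger: the median log2 fold change was 0.90 among the genes that rose and -0.34 among those that fell, against -0.02 over all genes tested, and 309 of the 686 changed by more than 2-fold, as did 30 of the 217. The genes that rose were mostly low at the start, with a median of 3.17 TPM in the empty vector libraries and 407 of them under 5 TPM (59.3%, against 45.4% of all genes tested). Those that fell had a median of 50.2 TPM, against 7.26 TPM over all genes tested. The part of expression level in which genes were called was not tested.

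**Figure D1:**
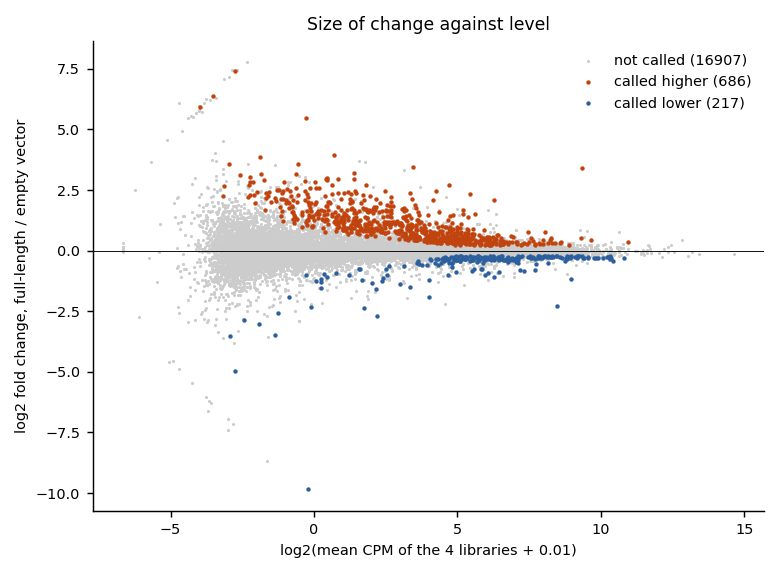
Each point is 1 of the 17810 genes tested; the x axis is log2 of the mean CPM of the 4 libraries plus 0.01, and the y axis is the fitted log2 fold change of full-length ASXL2 over empty vector. The 686 genes called higher (orange) spread over the left and middle of the plot with a median log2 fold change of 0.90, and the 217 called lower (blue) lie mostly at higher levels and near zero, with a median of -0.34.

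The direction was checked in each batch pair, that is, full-length against empty vector within batch 1 and within batch 2. All 686 genes that rose were above zero in both pairs, and all 217 that fell were below zero in both. These pairs are the data of the fit, so the shared direction is a description of it. The values of the 2 groups did not overlap for 627 of the 686 (15.8% of all genes tested did not overlap in that direction) and for 185 of the 217 (13.7%). A test of the difference between the pairs called 3 genes (0.0168%), with 1016 at an unadjusted p under 0.05, and none of the 3 was among the 903 genes called here. Within a batch neither group has a replicate, so the spread in this test comes from the pooled mutant libraries. The few calls do not show that the pairs are alike.

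**Figure D2:**
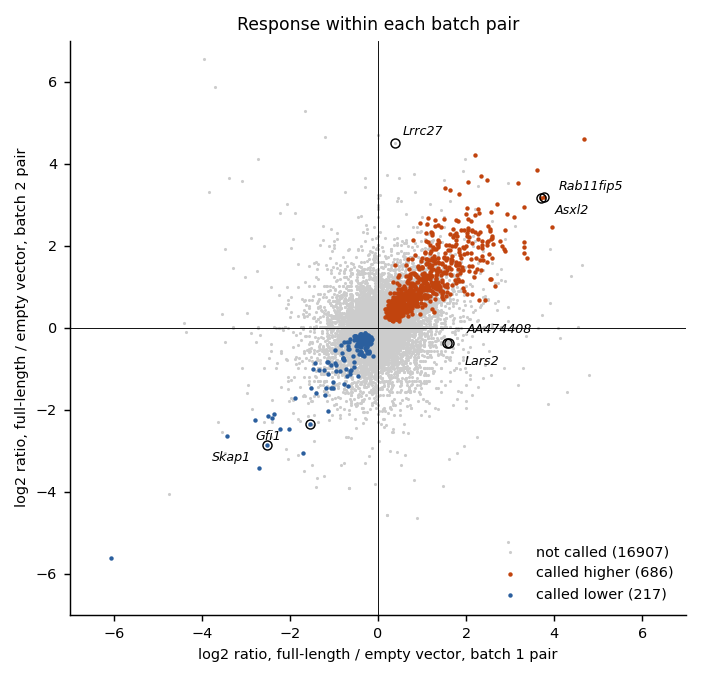
Each point is a gene; the x axis is the log2 ratio of full-length to empty vector in batch 1 and the y axis the same ratio in batch 2, on CPM with a prior count of 2. Orange (686) and blue (217) points lie in the quadrants where both pairs have the same sign, and 7 genes are circled and named: Asxl2, Rab11fip5, Gfi1 and Skap1 near the diagonal, and Lrrc27, Lars2 and AA474408, which differed between the pairs.

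How many genes are called rests on the batch block. The block used takes the batch from the deposited data names, which for 2 of the 6 mutant libraries give another batch than the label; for the 4 libraries compared both sources give the same batch. Without the replicate block 122 genes rose and 12 fell, and with the labelled batch as the replicate block 115 rose and 14 fell. With only the 4 libraries in the fit 361 rose and 66 fell. Leaving out 1 of the 4 libraries gave 263 to 473 rises and 22 to 235 falls, the fewest without the batch 2 full-length library. None of the 903 had the opposite sign in any of these settings, which share the libraries of the main fit. By the naming rule 137 called genes are named, and 12 of them were called in every setting in which they were tested: Asxl2, Adcy6, Sall2, Cand2, Arhgef5, Epor, Eng, Ralgds, Pik3cb, Bcar1, Src and Rxra.

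The largest rises were in genes of several kinds. Rab11fip5, an effector of Rab11 that directs recycling endosomes, gave 1.22, 2.51, 17.1 and 23.1 CPM, a log2 fold change of 3.47 (standard error 0.47, adjusted p = 0.00600). Both full-length libraries were above both controls by a wide gap; without the batch 1 empty vector library the adjusted p was 0.082. Adcy6, an adenylyl cyclase that makes cAMP, gave 3.24, 3.31, 19.3 and 14.9 CPM (log2 fold change 2.38, standard error 0.23, adjusted p = 0.00101). Its 2 controls were nearly equal and the groups did not overlap. Tns1, tensin 1, which links integrins to actin, gave 18.5, 10.2, 73.9 and 70.3 CPM (log2 fold change 2.33, standard error 0.36, adjusted p = 0.0145). It lost its call without the batch 1 full-length library (adjusted p = 0.097) or without the batch 2 one (0.078). Cand2, which takes part in the exchange of cullin-RING ubiquitin ligases, gave 1.71, 1.04, 7.16 and 5.57 CPM (log2 fold change 2.24, standard error 0.21, adjusted p = 0.000518). Sall2, a zinc finger transcription factor, gave 0.942, 1.21, 5.44 and 5.36 CPM (log2 fold change 2.31, standard error 0.25, adjusted p = 0.000689). In both genes the full-length libraries were close to each other and far above the controls.

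Other large rises were less even between the libraries. Apoe, the apolipoprotein of lipid transport, gave 6.72, 6.39, 66.9 and 24.99 CPM, with the batch 1 full-length library highest (log2 fold change 2.72, standard error 0.54, adjusted p = 0.0377). F13a1, the A subunit of coagulation factor XIII, gave 17.0, 42.5, 87.5 and 165 CPM, so the batch 2 library was the higher in both groups (log2 fold change 2.10, standard error 0.43, adjusted p = 0.0428). Eno2, an enolase isoform of glycolysis, gave 1.86, 1.42, 12.8 and 6.23 CPM (log2 fold change 2.46, standard error 0.54, adjusted p = 0.0469). All 3 sat close to the threshold. Without the batch 1 empty vector library the adjusted p was 0.27 for Apoe, 0.19 for F13a1 and 0.32 for Eno2, and each also lost its call without either full-length library. Slc6a12, a betaine and GABA transporter, gave 11.5, 3.53, 32.7 and 22.4 CPM, so the 2 controls lay far apart (log2 fold change 2.11, standard error 0.41, adjusted p = 0.0312). It lost its call without either empty vector library (adjusted p = 0.166 and 0.157) and without the batch 2 full-length library (0.150).

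**Figure D3:**
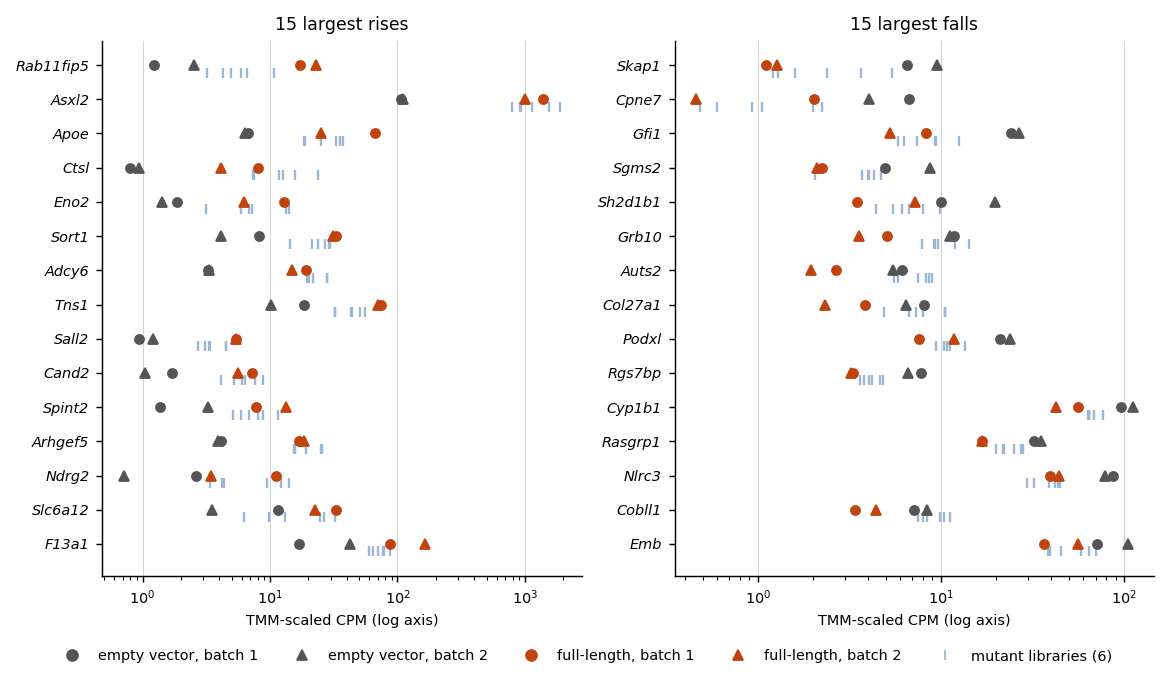
Rows are the 15 largest rises (left) and the 15 largest falls (right); the x axis is CPM on a log axis. Grey marks are the 2 empty vector libraries, orange marks the 2 full-length libraries (circle for batch 1, triangle for batch 2), and blue ticks the 6 mutant libraries. In every row the orange marks lie on 1 side of the grey ones, as for Adcy6, with 3.24 and 3.31 CPM against 19.3 and 14.9 CPM.

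Lysosomal genes were among those that rose. Lysosomes degrade what endosomes and autophagosomes deliver, and mast cell granules are built on the same machinery. Of 49 lysosomal enzymes and membrane proteins tested, 10 rose (20.4%, against 3.85% of all genes) and 0 fell, with a median log2 fold change of 0.12. Sort1, sortilin, which carries cargo from the Golgi to lysosomes, gave 8.13, 4.16, 33.1 and 31.4 CPM (log2 fold change 2.45, standard error 0.32, adjusted p = 0.00634). Both full-length libraries were about equal and well above the controls. Ctsl, the protease cathepsin L, gave 0.791, 0.934, 8.07 and 4.10 CPM (log2 fold change 2.69, standard error 0.45, adjusted p = 0.0143). The abundant members moved much less. Lamp1, a main protein of the lysosome membrane, gave 238, 267, 313 and 409 CPM (log2 fold change 0.51, standard error 0.08, adjusted p = 0.00655). Psap, the precursor of the saposins that help break down sphingolipids, gave 321, 357, 404 and 468 CPM (log2 fold change 0.36, standard error 0.06, adjusted p = 0.00600). Ctsb, cathepsin B, gave 190, 214, 237 and 271 CPM (log2 fold change 0.33, standard error 0.06, adjusted p = 0.00871). In these 3 genes the groups did not overlap, and the batch 2 library was the higher in both groups. Without the batch 2 full-length library the adjusted p was 0.0531 for Sort1, 0.0864 for Ctsl, 0.0877 for Lamp1, 0.0911 for Psap and 0.127 for Ctsb. Other losses were Sort1 without the batch 2 empty vector library (0.0532), Ctsl and Ctsb without the batch 1 one (0.138 and 0.0766), and Ctsl without the batch 1 full-length library (0.0861). The other 5 that rose were Scarb2, Asah1, Npc2, Napsa and Atp6v1a. Only 1 of the 49 was called without the replicate block, 1 without the batch 2 full-length library, 3 without the batch 1 empty vector library, and 4 without the batch 1 full-length library or with the 4 libraries alone.

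CACGTG is the core of the E-box that the lysosomal regulator TFEB and its relatives, MYC and USF bind, and mast cells make the TFEB relative MITF. The letters were looked for, after the values were seen, in the 250 bases before the RefSeq start (build GRCm38.p6) of the members that rose. A promoter was in the table for 6 of the 10, and 3 held CACGTG there, which reads the same on both strands. Of all 27025 promoters listed there, 6.05% held it over the same length. Lysosomal members that were not called were not counted, so these shares do not bear on which members rose. Psap, whose RefSeq start is also the start of an annotated GENCODE transcript, held 0 matches. Lamp1 had 4 matches, in capitals below (chr8:13158911-13159160, plus strand). It is shown because it holds matches, is the abundant membrane protein of the group and, alone of the 3, also has such a start.
Lamp1 promoter: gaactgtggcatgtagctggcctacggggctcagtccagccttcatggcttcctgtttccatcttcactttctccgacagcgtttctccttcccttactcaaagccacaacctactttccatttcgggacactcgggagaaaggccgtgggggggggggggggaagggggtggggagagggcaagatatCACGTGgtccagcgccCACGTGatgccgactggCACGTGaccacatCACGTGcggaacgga
All 4 matches lie in the part of the window nearest to the start. A match is a description of the letters and shows no binding.

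Vesicle traffic beyond the lysosome was covered by a pair of lists. Among 55 Rab GTPases and effectors 7 rose (12.7%, against 3.85% of all genes) and 0 fell (median log2 fold change 0.08). Without the batch 1 empty vector library, the batch 2 one or the batch 2 full-length library 2 of the 55 rose, and without the replicate block 1 rose. Among 24 SNAREs and tethers of degranulation 3 rose (12.5%) and 0 fell (median 0.08). Rab31, which acts between the Golgi and endosomes, gave 18.4, 28.8, 39.9 and 50.1 CPM (log2 fold change 0.95, standard error 0.11, adjusted p = 0.00102). Stx11, a syntaxin needed for granule release in cytotoxic lymphocytes, gave 10.7, 11.1, 17.5 and 21.0 CPM (log2 fold change 0.82, standard error 0.10, adjusted p = 0.00115). The groups did not overlap in either gene, and both kept their call when any 1 of the 4 libraries was left out.

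Of 40 growth factor and cytokine receptors tested 6 rose (15.0%, against 3.85% of all genes) and 1 fell (median log2 fold change 0.12); without the replicate block 2 rose. Of 28 genes of IgE receptor signalling 1 rose (3.57%) and 1 fell. Epor, the erythropoietin receptor, gave 3.14, 3.08, 7.78 and 9.19 CPM (log2 fold change 1.45, standard error 0.18, adjusted p = 0.00145). Eng, endoglin, a co-receptor for TGF-beta family ligands, gave 11.96, 18.8, 35.2 and 49.8 CPM (log2 fold change 1.47, standard error 0.20, adjusted p = 0.00454). The groups did not overlap in either gene, and both kept their call without each of the 4 libraries in turn. Il6st, the gp130 chain through which IL6 signals, gave 4.82, 2.77, 9.93 and 6.32 CPM (log2 fold change 1.11, standard error 0.14, adjusted p = 0.00145). Igf1r, the IGF1 receptor, gave 38.8, 23.9, 65.9 and 37.8 CPM, so the groups overlapped and the call rests on the pairs (log2 fold change 0.71, adjusted p = 0.000773; adjusted p = 0.785 with no replicate block). The receptor that fell was Il2rg, the common gamma chain. Of 29 lipid efflux genes and nuclear receptors 4 rose (13.8%, against 3.85% of all genes) and 0 fell. Among the 4 was Rxra, the shared partner of many nuclear receptors, with 13.8, 15.7, 38.0 and 33.7 CPM (log2 fold change 1.28, standard error 0.14, adjusted p = 0.00102).

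Small GTPases cycle between an active and an inactive state, and exchange factors switch them on. Of 24 exchange factors and GTPase activators for Ras 3 rose (12.5%, against 3.85% of all genes) and 1 fell (4.17%, against 1.22%). Ralgds, which links Ras to Ral, gave 5.01, 5.47, 13.2 and 16.3 CPM (log2 fold change 1.49, standard error 0.11, adjusted p = 0.000129). The one that fell was Rasgrp1, a Ras activator that responds to diacylglycerol, with 32.4, 35.1, 16.7 and 16.8 CPM (log2 fold change -1.01, standard error 0.13, adjusted p = 0.00197). Both groups of Rasgrp1 were tight, and it was called without each of the 4 libraries in turn.

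Of 30 PI3-kinase subunits and phosphatases 5 rose (16.7%, against 3.85% of all genes) and 0 fell (median log2 fold change 0.11). Without the batch 1 empty vector library, the batch 2 full-length library or the replicate block 2 rose. Pik3cb, the catalytic p110-beta subunit, gave 2.54, 2.48, 8.83 and 11.7 CPM (log2 fold change 2.03, standard error 0.20, adjusted p = 0.000657). Inppl1, the lipid phosphatase SHIP2, gave 54.3, 56.8, 83.6 and 78.9 CPM (log2 fold change 0.55, standard error 0.09, adjusted p = 0.00526). The groups did not overlap in either gene; Inppl1 lost its call without the batch 1 empty vector library (adjusted p = 0.0618). Of 43 genes of focal adhesions and actin linkage 4 rose (9.30%) and 0 fell. Src, the tyrosine kinase, gave 15.4, 19.0, 35.8 and 40.8 CPM (log2 fold change 1.16, standard error 0.14, adjusted p = 0.00145). Bcar1, the Src substrate p130Cas, gave 0.678, 0.496, 5.96 and 3.38 CPM (log2 fold change 2.97, standard error 0.30, adjusted p = 0.000657). Itgb2, the beta chain of the leukocyte integrins, gave 20.1, 15.1, 57.5 and 53.2 CPM (log2 fold change 1.66, standard error 0.22, adjusted p = 0.00493). It was 1 of 3 that rose among 38 integrins and adhesion receptors (7.9%, against 3.85% of all genes). In that list 3 others fell (7.9%, against 1.22%). Without the batch 2 empty vector library the adjusted p of Itgb2 was 0.0513.

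Genes of antigen presentation moved by smaller amounts. Proteasome subunits of the immunoproteasome and the TAP transporter supply peptides to MHC class I, and H2-DMa and H2-Ob shape peptide loading on class II. Of 31 members tested 8 rose (25.8%, against 3.85% of all genes) and 1 fell (3.23%, against 1.22%). The median log2 fold change was 0.17. Psmb9 gave 26.0, 26.3, 37.8 and 46.3 CPM (log2 fold change 0.68, standard error 0.07, adjusted p = 0.000771). H2-Ob gave 20.5, 17.7, 38.5 and 31.7 CPM (log2 fold change 0.87, standard error 0.11, adjusted p = 0.00200). Psmb8 gave 87.4, 108, 116 and 181 CPM (log2 fold change 0.58, standard error 0.07, adjusted p = 0.00136). The groups did not overlap in these 3, although for Psmb8 the lower full-length library was close to the higher control. The others that rose were H2-DMa, Tap1, H2-Q4, H2-T22 and Tap2, and the one that fell was Pdcd1lg2. Without the replicate block 1 rose and with the labelled batch 0 rose; without the batch 2 full-length library 3 rose. Of 33 interferon response genes 2 rose (6.06%, against 3.85% of all genes), Dhx58 and Isg15, and 0 fell. Both lost their call without any 1 of the 4 libraries, with an adjusted p of 0.0809 to 0.184 for Dhx58 and 0.0849 to 0.319 for Isg15. Cytokine genes went both ways, with 3 of 32 up (9.38%, against 3.85% of all genes) and 3 down (9.38%, against 1.22%). Il6 gave 68.7, 69.9, 53.3 and 44.1 CPM (log2 fold change -0.51, standard error 0.07, adjusted p = 0.00197), while Il1b gave 1.66, 1.88, 4.70 and 6.21 CPM (log2 fold change 1.62, standard error 0.30, adjusted p = 0.0117). Il1b lost its call without the batch 1 empty vector library (adjusted p = 0.119) and without the batch 2 full-length library (0.116).

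Of the blood lineage transcription factors tested, 1 fell, Gfi1. Gfi1 (chr5:107716657-107726036) is a zinc finger repressor needed for neutrophil formation and stem cell quiescence. It gave 24.2, 26.9, 8.27 and 5.28 CPM, a fitted fold of 3.73 lower with full-length ASXL2 (log2 fold change -1.90, standard error 0.38, adjusted p = 0.0304). Both controls were close to each other, and the full-length libraries lay well below them; without the batch 1 empty vector library the adjusted p was 0.16, without the batch 2 one 0.10, and without the batch 2 full-length library 0.19. Its paralog Gfi1b, which acts in red cells and megakaryocytes, gave 44.5, 48.4, 55.8 and 62.1 CPM (log2 fold change 0.34, standard error 0.07, adjusted p = 0.0165). Gfi1b lost its call without the batch 1 empty vector library (adjusted p = 0.126) and without the batch 2 full-length library (0.199), so of the 2 paralogs, with opposite signs in the same libraries, neither call holds without either of those 2. Of 42 blood lineage transcription factors 5 rose (11.9%, against 3.85% of all genes) and 1 fell (2.38%, against 1.22%). The median log2 fold change was 0.01, and Cebpa, Klf1, Tcf4 and Cebpd were the other 4 that rose. Cebpa and Klf1 stayed low, at 0.264, 0.292, 0.616 and 2.04 CPM for Cebpa and 0.791, 0.482, 1.32 and 1.16 CPM for Klf1. Cebpa kept its call only without the batch 1 empty vector library (adjusted p = 0.0147), and Klf1 lost it without any 1 of the 4 (0.0545 to 0.200).

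Polycomb genes are the counterpart of the BAP1 complex. Of 32 tested 3 rose (9.38%, against 3.85% of all genes) and 0 fell (median log2 fold change 0.02). Cbx6 gave 79.8, 69.3, 117 and 97.7 CPM (log2 fold change 0.53, standard error 0.06, adjusted p = 0.000764). Cbx2 gave 6.93, 7.06, 11.1 and 11.1 CPM (log2 fold change 0.66, standard error 0.10, adjusted p = 0.00493). Both encode chromobox subunits of Polycomb repressive complex 1, and their groups did not overlap. Both lost their call with the labelled batch and at a tested fold of 1.5. Cbx6 also lost it without the replicate block, and Cbx2 with the 4 libraries alone and in the fits on log2 TPM. Kdm2b, which brings a variant of that complex to CpG islands, gave 57.3, 56.8, 67.9 and 67.6 CPM (log2 fold change 0.25, adjusted p = 0.0338), and it lost its call without any 1 of the 4 libraries (adjusted p 0.0817 to 0.234). Among 36 histone methyltransferases and demethylases edgeR called 0, against 5.07% of all genes. Of the 36, 18 had a log2 fold change above zero and 18 below.

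The largest falls were in a smaller and more mixed set. Skap1, an adaptor that couples antigen receptors to integrins, gave 6.53, 9.50, 1.11 and 1.28 CPM, a fitted fold of 6.54 lower with full-length ASXL2 (log2 fold change -2.71, standard error 0.45, adjusted p = 0.0103). Sh2d1b1, an SH2 adaptor of SLAM family receptors, gave 10.04, 19.9, 3.47 and 7.20 CPM (log2 fold change -1.49, standard error 0.21, adjusted p = 0.00266). In this gene each batch pair fell by a like amount although the batches differed in level. Podxl, podocalyxin, a sialomucin of blood progenitors, gave 21.1, 24.0, 7.59 and 11.8 CPM (log2 fold change -1.23, standard error 0.20, adjusted p = 0.00828). Cyp1b1, a cytochrome P450, gave 96.4, 112, 56.3 and 42.8 CPM (log2 fold change -1.07, standard error 0.14, adjusted p = 0.00312). Emb, embigin, a partner of monocarboxylate transporters, gave 70.9, 106, 36.7 and 56.4 CPM (log2 fold change -0.93, standard error 0.10, adjusted p = 0.000657). Milr1, an inhibitory receptor of mast cells also called allergin-1, gave 61.0, 54.1, 39.2 and 26.0 CPM (log2 fold change -0.83, standard error 0.13, adjusted p = 0.00800). The groups did not overlap in any of these genes. Skap1 lost its call without the batch 1 empty vector library (adjusted p = 0.080) and without the batch 2 full-length library (0.11), Podxl without either empty vector library (0.053 each), and Milr1 without the batch 1 one (0.070).

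Gene groups of protein synthesis fell by small amounts. Ribosomal proteins are made in near-equal numbers from very abundant transcripts. Of 48 cytosolic ribosomal protein genes tested 21 fell (43.8%, against 1.22% of all genes) and 0 rose. All 48 had a log2 fold change below zero, with a median of -0.23. Rpsa gave 1300, 1545, 1006 and 1230 CPM (log2 fold change -0.35, standard error 0.07, adjusted p = 0.0124). Rps18 gave 935, 973, 761 and 786 CPM (log2 fold change -0.30, standard error 0.06, adjusted p = 0.0152). Rpl28 gave 331, 340, 272 and 284 CPM (log2 fold change -0.27, standard error 0.05, adjusted p = 0.0114). All 3 were lower in both full-length libraries than in either control. Without the batch 2 empty vector library each kept its call; without any 1 of the other 3 the adjusted p ran from 0.0566 to 0.150. The median was -0.19 in the batch 1 pair and -0.27 in the batch 2 pair. Of 45 genes of ribosome biogenesis and MYC targets 16 fell (35.6%) and 0 rose, with a median of -0.28. Srm, spermidine synthase, gave 140, 164, 100 and 123 CPM (log2 fold change -0.45, standard error 0.08, adjusted p = 0.00682). Npm1, the nucleolar chaperone nucleophosmin, gave 481, 528, 385 and 423 CPM (log2 fold change -0.32, standard error 0.06, adjusted p = 0.0144). Npm1 lost its call without any 1 of the 4 libraries (adjusted p 0.0724 to 0.106), and Srm without the batch 1 empty vector library (0.0674) or the batch 2 full-length one (0.0743).

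The calls in both groups moved with the fit more than their direction, which was read from the same libraries each time. No ribosomal protein gene was called without the replicate block, with the labelled batch or with the 4 libraries alone, nor without the batch 2 full-length library. Without the other 3 libraries 2 to 4 were called, and DESeq2 called 39. Ribosome biogenesis had 0 falls without the block, without the batch 1 empty vector library and without the batch 2 full-length library, 1 without the batch 1 full-length library, and 25 without the batch 2 empty vector library. Ribosomal protein genes also have many near-identical pseudogene copies, so that the sharing of reads among them is uncertain. Of the 29 mast cell markers tested in the same libraries, edgeR called 0, against 5.07% of all genes.

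CCGGAAG, the core of the site that ETS family factors such as GABPA bind, was looked for in the same way on both strands (CTTCCGG on the other). Of the 21 ribosomal protein genes that fell 15 had a promoter in the RefSeq table, and 7 held it within 250 bases before the start, against 7.05% of all 27025 promoters. Ribosomal protein genes that were not called were not counted, so these shares do not bear on which members fell. Rplp0, whose RefSeq start is also a GENCODE start, held 0 matches. Of the 7 that held the letters, only Rps7 has such a start. Rps7 is shown for that reason and holds 1 match, in capitals (chr12:28635954-28636203, minus strand, build GRCm38.p6).
Rps7 promoter: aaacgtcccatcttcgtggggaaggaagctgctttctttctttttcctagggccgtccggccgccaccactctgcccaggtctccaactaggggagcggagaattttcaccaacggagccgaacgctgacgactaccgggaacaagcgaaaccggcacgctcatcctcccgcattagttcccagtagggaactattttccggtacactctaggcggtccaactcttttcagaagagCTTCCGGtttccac
The match lies close to the start, and the same letters were in 1 of the 13 promoters found for the ribosome biogenesis genes that fell.

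**Figure D4:**
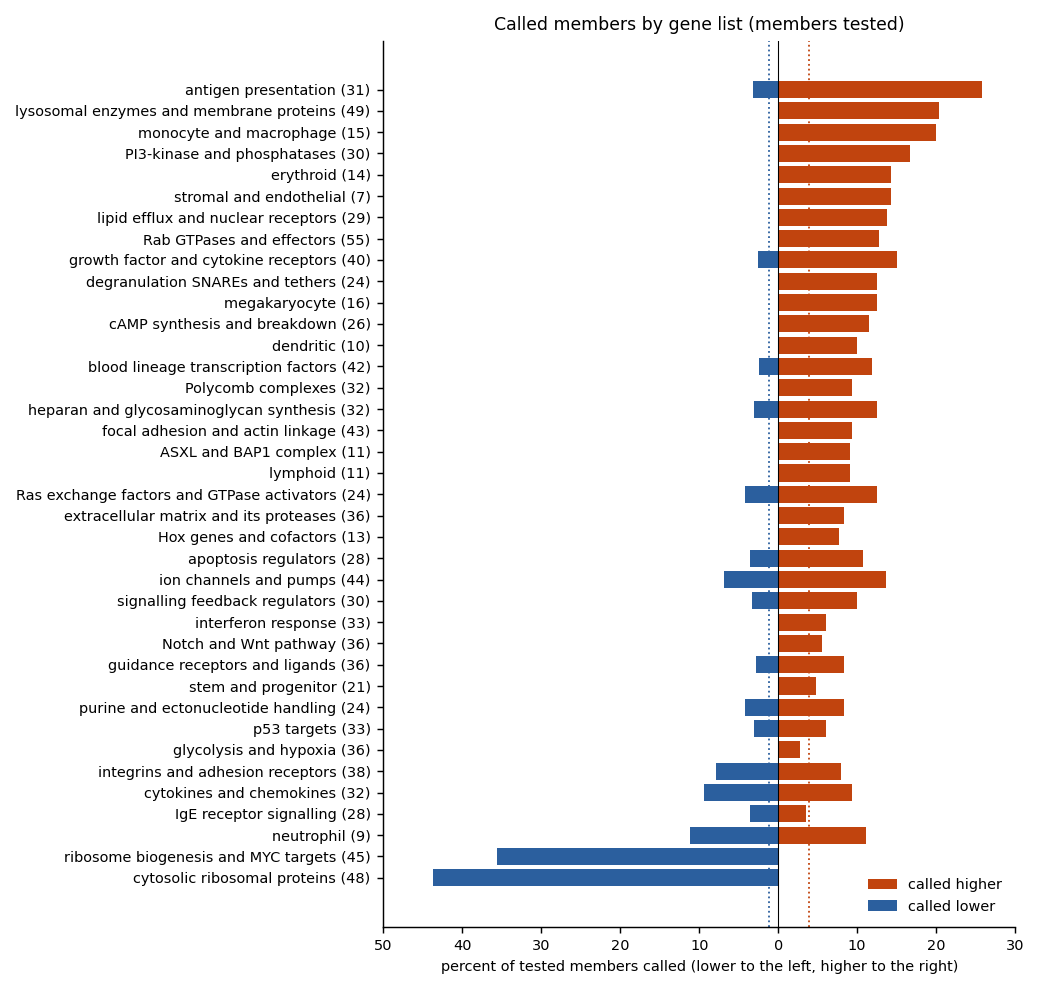
Bars give, for each gene list shown, all with at least 1 call, the percent of tested members called higher (orange, to the right) and lower (blue, to the left), with the number tested in parentheses; dotted lines mark 3.85% and 1.22%, the shares over all genes. The longest blue bars are cytosolic ribosomal proteins (43.8%) and ribosome biogenesis (35.6%), and the longest orange ones antigen presentation (25.8%) and lysosomal proteins (20.4%).

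Several gene groups showed no call. Over all genes tested 5.07% were called, so a short list can hold 0 calls at that share. Among 29 mast cell and basophil markers edgeR called 0, with a median log2 fold change of 0.05: Tpsb2, a granule tryptase, gave 5101, 7320, 7783 and 8756 CPM (log2 fold change 0.43, adjusted p = 0.162), and Il1rl1, the IL33 receptor, gave 4766, 5142, 5302 and 5690 CPM (log2 fold change 0.15, adjusted p = 0.305). Of 32 genes of cholesterol synthesis 0 were called, and 29 had a log2 fold change above zero (median 0.15). The median was 0.14 in the batch 1 pair and 0.13 in the batch 2 pair, with 23 members above zero in both pairs and 2 below in both. The direction moved in fits that left out 1 library and so broke a pair. The median was -0.04 with 12 above zero without the batch 1 full-length library, and 15 were above zero without the batch 2 empty vector library. With the 4 libraries alone 4 of the 32 were called higher. The batch pairs gave medians of opposite sign for genes of cell division, and the difference between the pairs was not tested for these groups. Of 32 mitosis genes 0 were called, and their median was -0.35 in the batch 1 pair and 0.18 in the batch 2 pair. For 44 DNA replication genes the medians were -0.33 and 0.06, again with 0 called. For 36 glycolysis and hypoxia genes they were 0.39 and -0.01, and only Pfkm, the muscle phosphofructokinase, rose (25.6, 23.9, 38.4 and 34.8 CPM, log2 fold change 0.56, adjusted p = 0.00311). Without the batch 1 empty vector library the mitosis median was 0.22, and without the batch 2 one it was -0.38 with 8 falls. The part of the cells' growth state in the falls of ribosome genes was not tested.

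Monocyte and macrophage markers did not rise together. Of 15 tested 3 rose (20%, against 3.85% of all genes), Apoe, F13a1 and Cd14. The median log2 fold change over the list was 0.03. The 24 markers summed to 128 and 116 TPM with the empty vector and to 185 and 158 TPM with full-length ASXL2. Apoe gave 10.6, 7.74, 88.8 and 36.1 TPM and F13a1 6.36, 13.97, 29.5 and 57.7 TPM of these sums. The largest part of the empty vector sums was Cx3cr1, the fractalkine receptor, with 78.6, 59.3, 41.7 and 21.1 TPM, lower in both full-length libraries but not called (log2 fold change -1.09, adjusted p = 0.207). Ccr2, a chemokine receptor, gave 6.12, 7.33, 2.22 and 4.01 TPM and was not called (log2 fold change -1.19, adjusted p = 0.128). Several defining markers were near zero: Csf1r reached at most 0.0942 TPM, Mrc1 0.0239 TPM and Irf8 0.0117 TPM in any of the 4 libraries, and C1qa was listed at 0 in all 4. Lyz2 gave 8.83, 6.93, 8.32 and 13.9 TPM and Adgre1 gave 3.18, 4.06, 2.58 and 4.69 TPM, and the groups of both overlapped. Cd68 gave 7.68, 7.37, 5.37 and 6.19 TPM, lower in both full-length libraries. The neutrophil list summed to 93.5, 411, 40.7 and 307 TPM. That list follows the batch through 1 gene, Ctsg, with 39.8, 262, 18.0 and 189 CPM, which also reaches 307 CPM among the mutants and was not called (adjusted p = 0.606).

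Few genes were called between the mutants and full-length ASXL2. The mutants share their empty vector libraries with this comparison, so their values against it are not an independent repeat; there, 6.82% of the genes tested were called higher and 3.99% lower. The direct test is the pooled mutants against full-length. It called 71 genes (33 higher in the mutants, 0.185%, and 38 lower, 0.213%; 0.399% in all), with 2003 at an unadjusted p under 0.05. Adcy6 was not called there. Its 6 mutant libraries ran from 19.5 to 28.1 CPM, all above both full-length libraries, and the difference of mutants from full-length was 0.43 on the log2 scale (adjusted p = 0.403). Gfi1 ran from 5.85 to 12.6 CPM in the mutants (difference 0.31, adjusted p = 0.800). Such p-values do not show that the proteins act alike.

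A few genes did differ. Auts2, a partner of a Polycomb repressive complex 1 variant, gave 6.12, 5.50, 2.69 and 1.95 CPM and fell with full-length ASXL2 (log2 fold change -1.33, adjusted p = 0.00600). The 6 mutant libraries held 5.58 to 9.005 CPM, above both full-length libraries (difference 1.69, standard error 0.19, adjusted p = 0.00816). Col27a1, a fibrillar collagen chain, gave 8.08, 6.48, 3.86 and 2.32 CPM against 4.87 to 10.6 CPM in the mutants (difference 1.38, standard error 0.18, adjusted p = 0.0118). Cobll1, an actin-binding cordon-bleu relative, gave 7.12, 8.41, 3.40 and 4.43 CPM against 7.51 to 11.2 CPM (difference 1.24, standard error 0.18, adjusted p = 0.0214). In all 3 the mutants overlapped or exceeded the empty vector range while the full-length libraries lay below it. Against the empty vector, Auts2 and Col27a1 lost their call without the batch 2 full-length library (adjusted p = 0.0688 and 0.0693), and Cobll1 without any 1 of the 4 (0.0588 to 0.162). Extl3, a glycosyltransferase of heparan sulfate synthesis, gave 17.5, 18.5, 29.95 and 38.3 CPM and lay between, at 20.3 to 28.3 CPM, in the mutants (difference -0.44, standard error 0.07, adjusted p = 0.0355). Trp53i11, a target of p53, went the other way, with 0.433, 0.730, 1.75 and 2.89 CPM and 3.71 to 7.41 CPM in the mutants (difference 1.23, standard error 0.16, adjusted p = 0.00953). Itgb2 and Rasgef1a were picked after their values were seen. Itgb2 reached 20.3 to 33.3 CPM in the mutants, under both full-length libraries (difference -1.08, adjusted p = 0.0430). This call was lost without the replicate block and with the labelled batch (edgeR adjusted p = 0.190 and 0.224). It was also lost without any 1 of the 4 libraries compared, and without some of the mutant libraries. The difference was -1.15 without the batch 1 full-length library and -1.03 without the batch 2 one. Rasgef1a, a Ras exchange factor, gave 1.58, 0.992, 5.77 and 2.21 CPM and 5.05 to 12.1 CPM in the mutants (difference 1.21, adjusted p = 0.0441). Of Auts2, Col27a1, Cobll1, Extl3 and Trp53i11, none was called without the replicate block or with the labelled batch, where the smallest adjusted p was 0.106 (Auts2). None of these genes kept its call without the batch 2 full-length library, where the difference of Auts2 was 1.58. Without the batch 1 full-length library Auts2 alone of them kept it (difference 1.81).

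**Figure D5:**
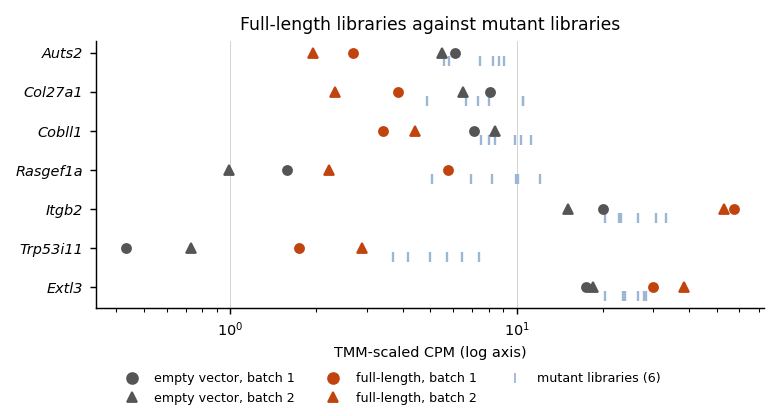
Rows are 7 genes that were called between the pooled mutants and full-length ASXL2 and in the comparison with empty vector; the x axis is CPM on a log axis, with grey marks for empty vector, orange marks for full-length (circle batch 1, triangle batch 2) and blue ticks for the 6 mutant libraries. For Auts2 the orange marks (2.69 and 1.95) lie below all blue ticks (5.58 to 9.005), and for Itgb2 above them.

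Transcript features differed between the sets. The longest annotated transcript had a median length of 3707 bases among the genes that rose and 2580 bases among those that fell, against 2902 bases over all genes tested, and a median GC content of 52.9%, 51.1% and 49.0%. The part of length or GC content in the calls was not tested. By chromosome, leaving out Y with 18 genes tested and 0 called, the share of genes that rose ran from 2.54% on chromosome 5 to 5.15% on chromosome 16.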

How the data were processed

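Polyadenylated RNA of 10 libraries was sequenced (5 groups of 2). The authors deposited, per the file headers, an estimated count and a TPM value per transcript for each library; kallisto, DESeq2 and mm10 stand in the submitters' processing notes, with versions not given in the sources used here, nor is a strand setting. Of 115088 transcripts 114200 matched GENCODE M21 (GRCm38), and their estimated counts were summed over 47311 genes and rounded. The members, gene lists and motifs were chosen with earlier results of these data known.

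Counts were tested with edgeR 4.0.16 (robust quasi-likelihood, TMM, filterByExpr, R 4.3.3) over all 10 libraries, with 3 classes (empty vector, full-length, mutants) and the batch of the deposited name as a block, which left 6 residual degrees of freedom; adjustment was Benjamini-Hochberg over 17810 genes at 0.05. Contrasts were full-length minus empty vector, the same between batches (4 degrees of freedom) and mutants minus full-length. Alternatives used DESeq2 1.42.0, and limma 3.58.1 on log2(TPM + 1) and log2(TPM + 0.1). The script was tested on simulated data. The labels give a batch, which is the same as in the deposited name for the 4 libraries compared. Deviations of libraries with the same label number correlated at 0.491 to 0.578 among empty vector, full-length and Mutant2, and at -0.145 to 0.0169 in the other 7 of 10 group pairs. The deposited names of 4 mutant libraries give another mutant number than the label, and 2 of these another batch.

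The naming rule took the 15 largest rises and falls and the 10 most abundant among certain called genes. These had the same sign in both pairs, no predicted symbol and at least 5 CPM in the higher group. Without these conditions it took up to 4 members of each of 48 lists by p, the ASXL genes and Bap1. Genes differing between pairs were added, and up to 6 of the genes so chosen that differed from the mutants were marked. The rule gave 217 genes, of which 137 were called. Near-identical copies share estimated counts, so values of ribosomal and similar genes are uncertain. Some results are not reported here.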

Additional observations from a re-analysis of the deposited data

Results flagged for a closer look

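By the test of the pairs, 3 genes differed between the batches (edgeR's interaction test): full-length over empty vector in batch 2 minus the same in batch 1. The spread in that test comes from the pooled mutant libraries, since neither group has a replicate within a batch. Lrrc27 gave 1.13, 1.33, 1.48 and 30.996 CPM (empty vector batch 1 and 2, full-length batch 1 and 2), a difference of 4.15 on the log2 scale (adjusted p = 0.0212). Only the batch 2 full-length library was high, and the 6 mutant libraries lay between 0.950 and 1.54 CPM. Lars2, the mitochondrial leucyl-tRNA synthetase, gave 924, 1504, 2732 and 1153 CPM, a difference of -1.95 (adjusted p = 0.0212), and AA474408 gave 438, 646, 1332 and 495 CPM, a difference of -1.99 (adjusted p = 0.0139). Both were high in the batch 1 full-length library, and also in mutant libraries, which reached 2665 CPM for Lars2 and 1149 CPM for AA474408. None of the 3 was called between full-length and empty vector (adjusted p = 0.167 for Lrrc27, 0.454 for Lars2 and 0.446 for AA474408).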

How the results depend on the processing

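The direction of the 903 called genes was the same in all alternatives that gave them a value, while their number moved with the fit. All alternatives used libraries of the main fit, so the unchanged direction is a description of the same data and no separate support. Without the replicate block 122 genes were higher and 12 lower, and with the labelled batch as the replicate block 115 and 14. The 4 libraries alone gave 361 and 66, the 6 libraries whose deposited name matches the label 380 and 66, and the 5 labelled groups 139 lower. A tested fold of 1.5 gave 108 and 6, DESeq2 gave 1035 and 479, limma on log2(TPM + 1) gave 156 and 45, and on log2(TPM + 0.1) 186 and 47. Leaving out 1 library gave 263 to 746 higher and 22 to 301 lower. Other scalings and filters stayed within 1.5 times. The difference between batch pairs, 3 genes, became 0 with the labelled batch, 15 with no filter, 1 with a stricter filter and 13 with DESeq2, and 0 to 4 when 1 mutant library was left out; it could not be run without an empty vector or full-length library. Mutants against full-length, 71 genes, became 0 with no replicate block, 1 with the labelled batch as the replicate block, 7 with the 6 name-matched libraries, 183 with no filter, 7 with a tested fold of 1.5, 500 with DESeq2 and 136 without the 2 mutant libraries named for another batch (chosen after seeing the data); leaving out 1 library gave 2 to 111. The cause was not tested. Of the 30 largest changes 14 were still called without the block and 13 without the batch 2 full-length library. Each group has 2 libraries, and genes under the count filter were not tested.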

Other observations

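The genes below were chosen after their values were seen. Gm26880, a long noncoding RNA outside the naming rule, gave 644, 547, 122 and 118 CPM (empty vector batch 1 and 2, full-length batch 1 and 2), a log2 fold change of -2.30 (standard error 0.22, edgeR adjusted p = 0.00134). Both full-length libraries lay far below both controls. Apol7e gave 1.96 and 1.43 CPM with the empty vector and 0 in both full-length libraries, while its close relative Apol7b gave 0.0565, 0.0146, 2.16 and 1.06 CPM. The 2 genes are near-identical copies, so how reads were shared between them is uncertain, and no fold is given.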
